A study of Bos taurus with 8 samples.

Results

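The transcription factors described here are 10 listed genes of the pluripotency network and of the first embryonic lineages: POU5F1, NANOG, SOX2, KLF4, KLF5, KLF17, GATA6, CDX2, TEAD4 and TFAP2C. They were looked up by symbol in a deposited table of 16606 genes. A row was found for 9 of the 10. SOX2 has no row in that table, and it is not analysed here. The values come from bovine embryos made by in vitro maturation and fertilisation of abattoir oocytes, collected at the 4-cell and the 8-cell stage. Edited embryos had received PEmax, a prime editor built from a Cas9 nickase and a reverse transcriptase, together with a guide RNA by injection into the zygote cytoplasm, and the labels name their edit as A148G in RPL12, a gene of the large ribosomal subunit. Whether the controls received any injection, and whether cumulus cells were removed before lysis, is not given in the labels. Each of the 4 groups (4-cell control, 4-cell edited, 8-cell control, 8-cell edited) has 2 libraries, each from a pool of 5 embryos, so that a library is a mean over embryos whose single editing outcome is not known. The titles call the samples base edited where the protocol describes prime editing, and the 4-cell samples carry oocytes as their source although their titles say embryo.

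As background, POU5F1 (OCT4), SOX2 and NANOG bind together at enhancers and hold the inner cell mass in a pluripotent state, and POU5F1 transcripts are also stored in the oocyte. Krüppel-like factors join that circuit. TEAD4 with its co-activator YAP1 starts the trophectoderm programme, in which CDX2, TFAP2C and GATA3 act, while GATA6 specifies the hypoblast, the source of the yolk sac. In cattle the main wave of embryonic transcription starts at about the 8-cell stage, before these lineages part.

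Levels are in CPM, reads per 1000000, with no correction for gene length, so values are compared between libraries for 1 gene and never between genes. Between 33527531 and 35122409 reads were recovered per library, so that 3 reads, taken here as the detection limit, equal 0.0858 to 0.0899 CPM. RPL12 itself stood at 159 and 174 CPM in the 4-cell control and 27.5 and 33.6 CPM in the 4-cell edited libraries, and at 96.3 and 97.6 CPM in the 8-cell control and 11.9 and 14.1 CPM in the 8-cell edited libraries. All 12 listed oocyte markers were at or above 1 CPM in each library, and their sum was 18022 and 23038 CPM in 4-cell control, 43605 and 51084 CPM in 4-cell edited, 45259 and 33662 CPM in 8-cell control and 45261 and 48288 CPM in 8-cell edited libraries. Markers of somatic cells were present too: 18 of 23 cumulus and granulosa genes in the table reached 1 CPM in both 4-cell control libraries and 13 in both 8-cell edited libraries. In a pool, fewer cells of a type and less RNA per cell cannot be told apart.

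Of the 9 members, 5 had a mean of at least 1 CPM over the 8 libraries and were tested: POU5F1, KLF4, KLF5, KLF17 and GATA6. CDX2 (mean 0.966 CPM) lay just under that limit and KLF17 (1.22 CPM) just above it. TEAD4 (0.335 CPM), NANOG (0.239 CPM) and TFAP2C (0.0322 CPM) lay further below. Tests are limma fits on log2(CPM + 1) over all 12129 genes that passed the same limit, with Benjamini-Hochberg adjusted p-values and a threshold of 0.05. A log2 fold change on that scale understates the change of a gene near 1 CPM. Because libraries of a group are not stated to come from separate fertilisations, p-values measure the spread between these pools.

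At the 4-cell stage, the comparison of edited with control embryos asked whether editing of RPL12 goes along with other transcript levels. KLF4 was higher and GATA6 lower in edited embryos, and the other 3 tested members did not pass. The 2 called of 5 stand beside 44.7% of all tested genes called in this comparison, 18.9% higher and 25.8% lower. At the 8-cell stage GATA6 alone passed among the 5, lower in edited embryos, where 15.6% of all tested genes were called, 1.08% higher and 14.5% lower. In neither comparison can the share of members called be read as a property of these factors. Because both stages' libraries share 1 estimate of the spread, the results at each stage lean on all 8 libraries.

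KLF4, a zinc finger activator that can help reprogram cells to pluripotency, had 2.55 and 2.02 CPM in the 4-cell control libraries against 14.7 and 13.9 CPM in the 4-cell edited libraries. The 8-cell control libraries held 4.75 and 5.97 CPM and the 8-cell edited libraries 8.85 and 6.14 CPM. All 4 edited libraries thus lay above all 4 control libraries, as did 7.66% of the 16586 genes with a read. KLF4 rose in edited embryos at the 4-cell stage by 2.23 on the log2 scale (SE 0.362, limma adjusted p-value 0.000150). In pooled reads that was 985 against 157, a ratio of 6.26 with a 95% exact (Clopper-Pearson) counting interval of 5.29 to 7.46. This interval, like the other exact counting intervals given below, covers the counting error of reads only and not the spread between libraries. Because reads copied by PCR do not each stand for a separate molecule, these intervals are too narrow. The summed oocyte markers were higher in the same 4-cell edited libraries, also without BTG4, their most abundant gene (14764 and 13521 against 6007 and 8113 CPM). OOSP2 alone stood at 6669 and 6196 CPM in 4-cell edited and at 674 and 1189 CPM in 4-cell control libraries. H1-8 of that list was lower in the 4-cell edited libraries (622 and 356 against 768 and 751 CPM), and ZP3, ZP4, NLRP5, FIGLA and MOS overlapped. The part of these markers in the KLF4 result was not tested. At the 8-cell stage the log2 fold change was 0.41 (95% interval -0.36 to 1.17, limma adjusted p-value 0.516). The 2 effects differed by -1.82 (SE 0.512), which did not pass after adjustment (limma adjusted p-value 0.0573). DESeq2 (adjusted p-value 0.00750) and limma on TMM-rescaled values (0.0478) called this difference, and none of the other settings tried did.

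Across stages the order of KLF4 differed by condition. From the 4-cell to the 8-cell stage the log2 fold change was 0.95 in controls (limma adjusted p-value 0.0970) and -0.87 in edited embryos (limma adjusted p-value 0.175), and neither passed. DESeq2 called the change in controls, and none of the other settings tried did. The 4 groups did not overlap with their neighbours in the order 4-cell edited, 8-cell edited, 8-cell control, 4-cell control. The closest step was 6.14 CPM in 8-cell edited against 5.97 CPM in 8-cell control libraries. At that stage 23.9% of genes with a read had both edited libraries above both controls. When the mean log2 level of 18 cumulus and granulosa genes was added to the model as a covariate, the 4-cell effect of KLF4 was 2.57 with an adjusted p-value of 0.0906. All 4 control libraries lay above all 4 edited ones on that covariate (3.742 to 4.601 against 3.05 to 3.64, mean log2 level).

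**Figure D1:**
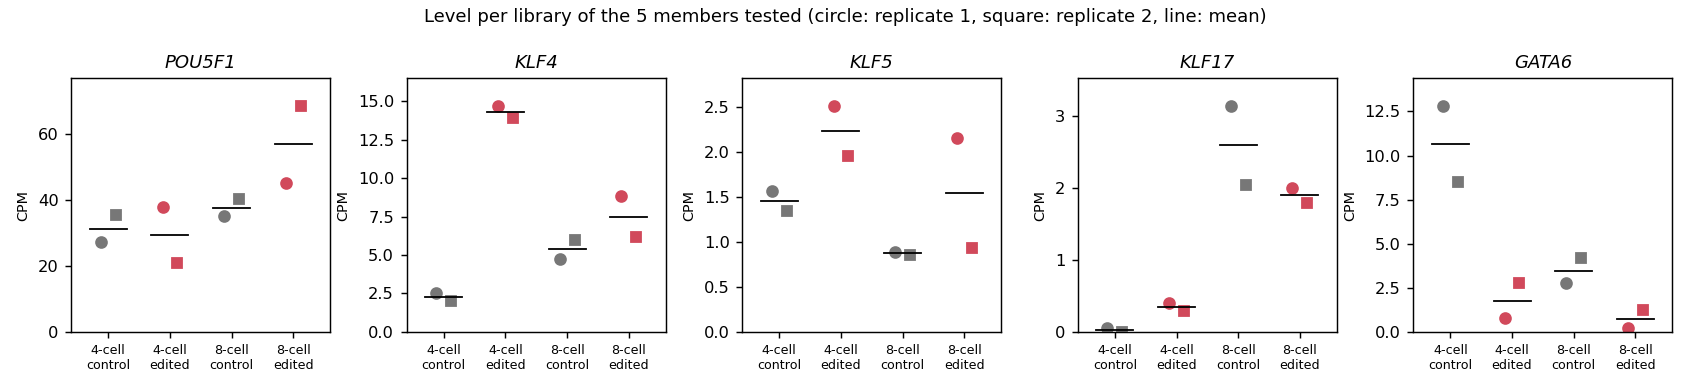
CPM of the 5 tested members (vertical axes, each from 0) in the 8 libraries by group (horizontal axes), with grey for control, red for edited, a circle for replicate 1, a square for replicate 2 and a line at the mean of 2. KLF4 stands at 14.7 and 13.9 CPM in 4-cell edited libraries against 2.55 and 2.02 CPM in 4-cell controls, and GATA6 lies lower in the edited libraries of each stage.

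GATA6, a zinc finger factor of the hypoblast that is also expressed in granulosa and mesenchymal cells, was lower in edited than in control embryos. It stood at 12.8 and 8.47 CPM in the 4-cell control libraries and at 0.781 and 2.75 CPM in the 4-cell edited libraries. In the 8-cell control libraries it stood at 2.77 and 4.17 CPM, and in the 8-cell edited libraries at 0.239 and 1.26 CPM. Each edited library lay below each control library, across stages as well, and 15.9% of the genes with a read did likewise. The lowest value rests on 8 reads, the highest on 443.

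GATA6 fell in edited embryos at the 4-cell stage by 2.15 on the log2 scale (SE 0.456, limma adjusted p-value 0.00130), and by 1.40 in 8-cell embryos (SE 0.456, limma adjusted p-value 0.0479). The 2 effects differed by 0.75 (95% interval -0.62 to 2.12, limma adjusted p-value 0.517). In controls the log2 fold change from the 4-cell to the 8-cell stage was -1.37 (limma adjusted p-value 0.0650) although the libraries did not overlap, and in edited embryos it was -0.63 (limma adjusted p-value 0.460). The 8-cell call lay close to the threshold: edgeR's quasi-likelihood test gave an adjusted p-value of 0.116 and limma without the filter on low values 0.130. Leaving out 1 library ended it in 5 of 8 cases, namely either 4-cell control library, either 8-cell control library or 8-cell edited replicate 1.

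Cumulus, granulosa and stroma markers as lists were lower in the same libraries as GATA6. The summed level of the cumulus and granulosa list was 1368 to 1674 CPM in 4-cell control, 502 to 560 CPM in 4-cell edited, 658 to 911 CPM in 8-cell control and 514 to 541 CPM in 8-cell edited libraries. Its gene LHCGR was at 0 in both 4-cell control libraries and FOXL2, a defining granulosa factor, was at most 0.464 CPM in any library. The steroid enzyme CYP11A1 went from 227 and 201 CPM in 4-cell controls to 3.33 and 14.5 CPM in 4-cell edited libraries. HAS2, an enzyme of cumulus expansion, stood higher in 4-cell edited libraries at 132 and 124 CPM against 24.3 and 55.4 CPM. So did KITLG (27.7 and 27.1 against 12.9 and 16.3 CPM) and GREM1 (8.42 and 7.93 against 3.39 and 3.34 CPM). At the 8-cell stage HAS2, GREM1, PTGS2 and STAR were higher in edited than in control libraries (STAR 174 and 213 against 154 and 143 CPM).

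The list of stroma and matrix genes summed to 5279 to 8456 CPM in 4-cell control, 1722 to 2376 CPM in 4-cell edited, 3655 to 4014 CPM in 8-cell control and 386 to 994 CPM in 8-cell edited libraries. The epithelial list summed to 327 to 371, 60.0 to 61.1, 97.3 to 121 and 49.3 to 56.3 CPM in the same order of groups, but most of this was UPK1B, a urothelial membrane protein, at 279 and 331 CPM in 4-cell control and 21.8 and 19.2 CPM in 4-cell edited libraries. Without UPK1B, left out after its values were seen, the other 8 genes summed to 48.1 and 40.6 CPM in 4-cell control against 39.4 and 40.8 CPM in 4-cell edited libraries, which overlap. EPCAM was higher in 4-cell edited libraries (31.0 and 31.1 against 20.2 and 17.6 CPM). At the 8-cell stage these 8 genes together were higher in edited libraries, at 44.6 and 36.8 CPM against 30.8 and 30.6 CPM in controls. The stroma list without its most abundant gene still lay lower in the edited libraries of both stages, as did the cumulus list at the 4-cell stage. At the 8-cell stage the cumulus list without SERPINE2 was lower by a narrow margin, at 483 and 458 CPM in edited against 487 and 735 CPM in control libraries. Immune markers summed to 12.5 to 24.0 CPM in all 8 libraries, and were highest in the 8-cell edited libraries (21.7 and 24.0 CPM). With the level of 18 cumulus and granulosa genes as a covariate, GATA6 had log2 fold changes of -1.49 (adjusted p-value 0.414) and -0.92 (adjusted p-value 0.791) at the 2 stages by limma. No member was called in any comparison under that covariate. All 4 control libraries lay above all 4 edited ones on that covariate, so editing and marker level are confounded in this fit. The part of other cell types in the GATA6 result was therefore not tested.

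**Figure D2:**
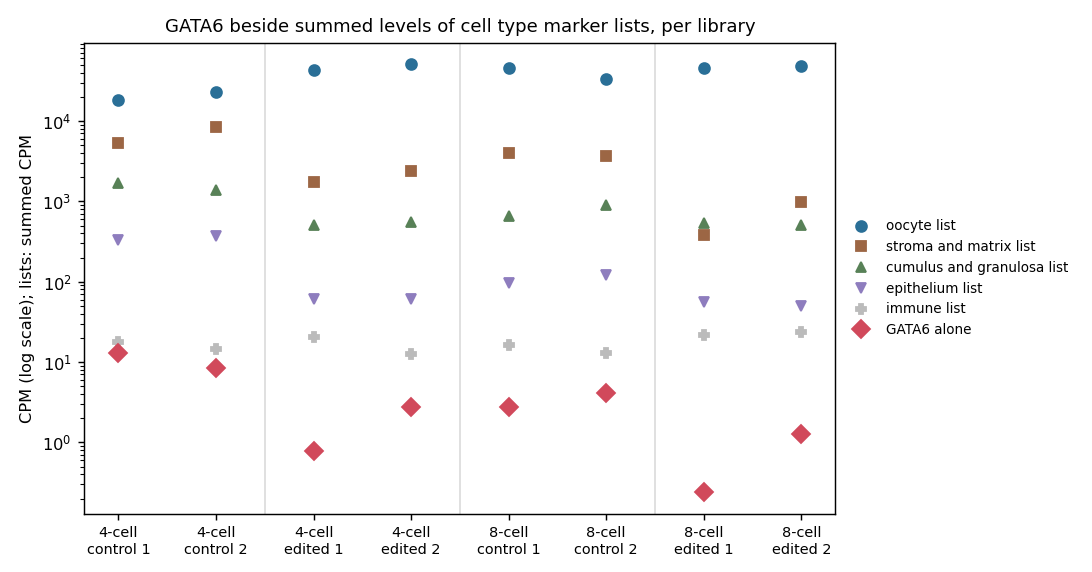
GATA6 in CPM and the summed CPM of 5 marker lists (vertical log axis) in each of the 8 libraries (horizontal axis). GATA6 and the stroma and cumulus lists lie lower in the 4-cell edited than in the 4-cell control libraries, as does the epithelial list through UPK1B, whereas the oocyte list lies higher there.

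GATA4, the relative of GATA6 that also acts in hypoblast and granulosa cells, showed the same order: 12.8 and 5.89 CPM in 4-cell control, 1.16 and 0.760 CPM in 4-cell edited, 2.66 and 5.41 CPM in 8-cell control, and 0.239 and 1.11 CPM in 8-cell edited libraries. Edited minus control, GATA4 differed by -2.33 (log2, limma adjusted p-value 0.000689) in 4-cell embryos and by -1.58 in 8-cell embryos (limma adjusted p-value 0.0242). GATA4 passed the limit of 1 CPM only through its control groups (means of 9.36 and 4.04 CPM, against 0.959 and 0.674 CPM in edited embryos). Its calls are therefore not used as support. By the smallest root mean square difference between centred log2 profiles over the 8 libraries, the genes nearest to GATA6 were TRNP1 (0.167) and PON2 (0.194), where the median over tested genes was 1.20. PON2 stood at 81.7 and 64.5 CPM in 4-cell control and 5.68 and 14.0 CPM in 8-cell edited libraries.

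KLF17, a Krüppel-like factor transcribed in early human and bovine embryos, was close to absent at the 4-cell stage and present at the 8-cell stage. Reads numbered 2 and 0 in the 4-cell control libraries, 14 and 10 in the 4-cell edited, 110 and 69 in the 8-cell control and 67 and 60 in the 8-cell edited libraries. In CPM these are 0.0579 and 0, 0.405 and 0.292, 3.15 and 2.04, and 2.00 and 1.80. The 4-cell control libraries thus lay under the detection limit of 3 reads and the 4-cell edited libraries above it. No neighbouring groups overlapped, but the 8-cell groups came as close as 2.00 CPM in edited against 2.04 CPM in control libraries. TMM rescaling multiplied these 2 values by 0.990 and 0.944 and so reversed their order. At the 8-cell stage 28.7% of genes with a read had both edited libraries below both controls.

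From the 4-cell to the 8-cell stage in controls the log2 difference of KLF17 was 1.79 (SE 0.380, limma adjusted p-value 0.0159). It was the 1 member called there, beside 9.02% of all tested genes (2.75% higher, 6.27% lower). In pooled reads the ratio was 89.3, with an exact counting interval of 24.4 to 743. In edited embryos the log2 fold change was 1.10 (SE 0.380, limma adjusted p-value 0.103) and the ratio of reads 5.44 (3.50 to 8.81). None of the 5 members was called in that comparison, where 5.18% of all tested genes were (1.45% higher, 3.73% lower). KLF17 passed the limit of 1 CPM only through its 8-cell libraries (group means of 2.59 and 1.90 CPM, against 0.0290 and 0.349 CPM at the 4-cell stage), so that it had to differ between stages, and its call is not used as support. Without the filter the limma adjusted p-value was 0.0590. DESeq2, limma on only the libraries compared and limma with the cumulus and granulosa covariate did not call KLF17 there either. The call was also lost without 4-cell control replicate 1 and without 8-cell control replicate 1.

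Between edited and control embryos the log2 fold change of KLF17 was 0.39 for the 4-cell (95% interval -0.42 to 1.20) and -0.29 for the 8-cell stage (-1.10 to 0.51), with limma adjusted p-values of 0.430 and 0.667. On reads, 24 in 4-cell edited stand against 2 in 4-cell control libraries, a ratio of 11.98 (exact counting interval 2.97 to 105). The count models, which do not add 1 CPM before the logarithm, called it there, with adjusted p-values of 0.0289 by edgeR and 0.0240 by DESeq2. In the RefSeq annotation the locus of KLF17 overlaps SLC6A9, a pair of pseudogenes and a long noncoding RNA gene, so the gene to which its reads belong is uncertain where strand was not used in counting.

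DUXA and ZSCAN4, factors of embryonic genome activation, were also compared between stages. ZSCAN4 was at 0 and 1.64 CPM in 4-cell control, 0.289 and 0.468 CPM in 4-cell edited, 7.95 and 3.55 CPM in 8-cell control and 6.72 and 19.8 CPM in 8-cell edited libraries. DUXA stood at 2.32 and 1.91, 2.89 and 4.53, 16.8 and 8.51, and 16.3 and 46.1 CPM in the same order. Both rose between stages in both conditions, with log2 fold changes of 2.07 (DUXA) and 1.97 (ZSCAN4) in controls and 2.62 and 3.20 in edited embryos. The limma adjusted p-values of these 4 values lay between 0.00592 and 0.0356. ZSCAN4, like KLF17, passed the limit of 1 CPM only through its 8-cell groups (means of 5.75 and 13.2 CPM, against 0.821 and 0.379 CPM at the 4-cell stage). Its calls between stages are therefore not used as support. Nearest to KLF17 in pattern were the unnamed loci LOC112442305 (0.256) and LOC785853 (0.320).

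POU5F1, the core pluripotency factor, was present in each library. It had 27.2 and 35.3 CPM in 4-cell control, 38.0 and 20.8 CPM in 4-cell edited, 35.1 and 40.2 CPM in 8-cell control and 45.1 and 68.6 CPM in 8-cell edited libraries. The 4-cell groups overlap, with the 2 edited libraries on either side of both controls, and the 8-cell edited libraries lie above all others. No comparison of POU5F1 passed. Edited minus control, the log2 difference was -0.13 for the 4-cell stage (95% interval -0.81 to 0.54, limma adjusted p-value 0.763) and 0.56 for the 8-cell stage (-0.12 to 1.23, limma adjusted p-value 0.284). From the 4-cell to the 8-cell stage it was 0.27 in controls (-0.40 to 0.94, limma adjusted p-value 0.609) and 0.96 in edited embryos (0.29 to 1.63, limma adjusted p-value 0.0918). The last passed when only the 4 edited libraries were fitted. Its nearest genes in pattern were SLC12A5 (0.146) and CYFIP2 (0.152).

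KLF5, which acts in trophectoderm as well as in the inner cell mass, was low in all libraries, with 29 to 87 reads. Its levels were 1.56 and 1.35 CPM in 4-cell control, 2.52 and 1.96 CPM in 4-cell edited, 0.887 and 0.857 CPM in 8-cell control, and 2.15 and 0.928 CPM in 8-cell edited libraries. The edited libraries lay above the controls of their stage, the second 8-cell edited library by 0.928 against 0.887 CPM only. Log2 fold changes were 0.39 and 0.40 at the 2 stages (limma adjusted p-values 0.441 and 0.562), with intervals from -0.44 to 1.23 in both cases. In the stage comparisons they were -0.39 in controls and -0.39 in edited embryos (limma adjusted p-values 0.542 and 0.612). IGFBP3 (0.124) and B3GNT9 (0.133) had the nearest patterns.

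**Figure D3:**
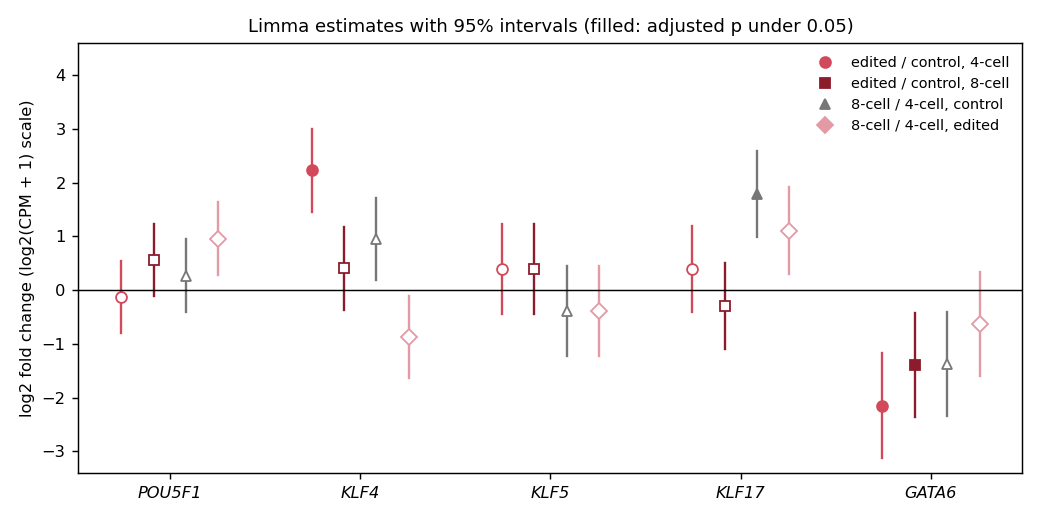
Log2 fold changes of the 5 tested members on the log2(CPM + 1) scale (vertical axis) for 4 comparisons, with 95% intervals from limma as bars and filled symbols where the adjusted p-value is under 0.05. Filled are KLF4 (2.23) and GATA6 (-2.15) at the 4-cell stage, GATA6 at the 8-cell stage (-1.40) and KLF17 between stages in controls (1.79).

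The other 4 members, below the limit for the test, are described by their reads. CDX2, the homeobox factor of trophectoderm, had 34 and 6 reads in the 4-cell control, 29 and 5 in the 4-cell edited, 25 and 33 in the 8-cell control and 43 and 87 in the 8-cell edited libraries. Within each 4-cell group the spread between libraries thus exceeded the difference between groups. Both 8-cell edited libraries lay above all others, at 1.29 and 2.61 CPM. In pooled reads the 8-cell ratio of edited to control was 2.31 (exact counting interval 1.68 to 3.20), and edgeR, which takes the spread between libraries into account, gave an adjusted p-value of 0.516.

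TEAD4, the DNA-binding partner of YAP1, had 24 and 37 reads in the 4-cell control, 9 and 0 in the 4-cell edited, 8 and 14 in the 8-cell control and 0 and 0 in the 8-cell edited libraries. It was lower in the edited libraries of each stage than in the controls of that stage, as were 34.7% (4-cell) and 28.7% (8-cell) of all genes with a read. With no read in either 8-cell edited library, the 8-cell control level was at least 3.56-fold higher, taking the limit of 3 reads in each edited library. At the 4-cell stage the pooled ratio of control to edited was 6.79 (exact counting interval 3.35 to 15.6). Limma without the filter on low values called the 4-cell difference (adjusted p-value 0.0124) but edgeR did not (0.230), and neither called the 8-cell difference (0.232 and 0.135). The cumulus and stroma lists given beside GATA6 were lower in the same libraries, and their part in the TEAD4 result was not tested.

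NANOG, the homeobox factor of the late inner cell mass, was at or under the detection limit in 4 of 8 libraries. Its reads were 0 and 6 in the 4-cell control, 20 and 0 in the 4-cell edited, 27 and 0 in the 8-cell control and 12 and 1 in the 8-cell edited libraries. Every group thus held 1 library with reads above the limit and 1 at or under it, although depth was alike, and no comparison of NANOG passed (edgeR adjusted p-values from 0.604 to 0.930 over 5 comparisons). TFAP2C, a factor of trophectoderm and the germ line, had 8 reads in the first 8-cell control library and 1 in the first 4-cell edited library, and none in the other 6. A count of 0 allows up to 3 reads, or 0.0858 to 0.0899 CPM. A processed copy of a gene can take some of its reads, and how the authors' counting treated such reads is not given in the sources used here.

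**Figure D4:**
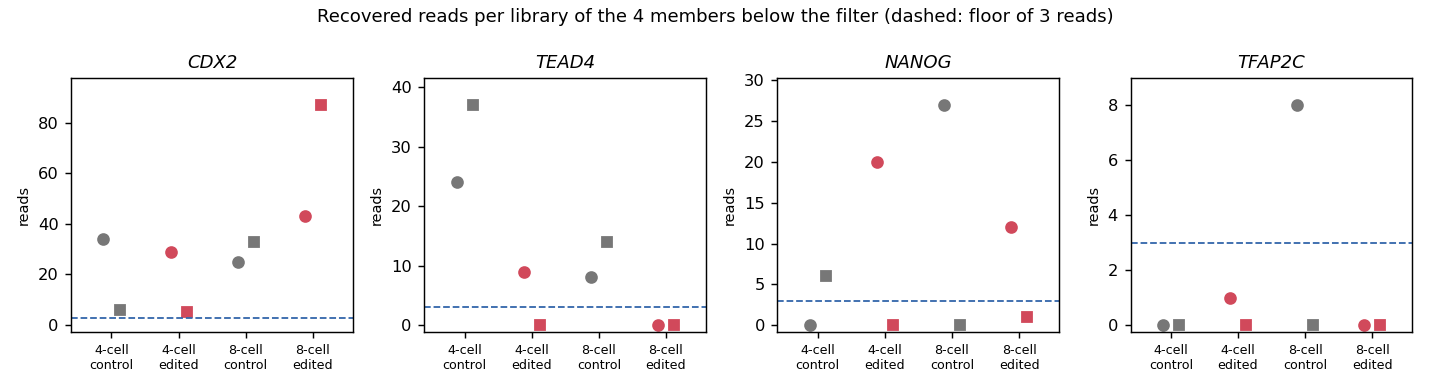
Recovered reads (vertical axes) of CDX2, TEAD4, NANOG and TFAP2C in the 8 libraries by group, with the detection limit of 3 reads as a dashed line, circles for replicate 1 and squares for replicate 2. TEAD4 has 24 and 37 reads in 4-cell controls and 0 in both 8-cell edited libraries, and NANOG has 1 library at or under the limit in every group.

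The wider network was followed through 5 lists of partner genes, in which higher, lower, rose and fell mean called by limma. The share called at the 4-cell stage was 33.3% of the tested pluripotency genes, 44% of trophectoderm, 38.9% of hypoblast, 61.5% of KLF and SP and 45.5% of genome activation genes, beside the 44.7% of all tested genes given above. At the 8-cell stage it was 20%, 12%, 44.4%, 15.4% and 18.2%, beside 15.6%. With the cumulus and granulosa covariate, 1 trophectoderm gene (lower) was called in these lists at the 4-cell stage and none at the 8-cell stage. Under that covariate none was called between stages in controls, and 3 genome activation genes (higher) and 1 hypoblast gene (lower) were called in edited embryos. TMM rescaling moved the 4-cell median of all tested genes from -0.02 to 0.08. Of 32 other pluripotency genes, 24 were in the table and 15 were tested. In the 4-cell comparison 2 were called higher and 3 lower, with a median log2 fold change of 0.46 against -0.02 over all genes tested, and with TMM rescaling 4 were higher and 3 lower. DPPA3, a maternal protector of DNA methylation, went from 1016 and 1962 CPM in control to 4873 and 6092 CPM in edited libraries (log2 fold change 1.95, limma adjusted p-value 5.94e-05). The summed oocyte markers given above were higher in the same libraries, though not every gene of that list was. Their part in the DPPA3 result was not tested. RIF1, a chromatin factor of replication timing, had a log2 fold change of 1.70. Lower were IL6ST, the shared receptor of the LIF family (-1.83), MYC (-1.50) and NR5A2, an orphan nuclear receptor (-1.40). These 3 were lower at the 8-cell stage as well, by -1.67, -1.60 and -1.85, and no gene of the list was called higher there (median 0.15), with DPPA3 at 0.82 (limma adjusted p-value 0.0614). In controls DPPA3 rose (1.26) and IL6ST fell (-1.03, not called with TMM rescaling) between stages, whereas no gene of the list was called between stages in edited embryos.

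Of 32 trophectoderm and Hippo pathway genes 25 were tested. In 4-cell embryos 7 were higher and 4 lower in the edited group (median 0.47), and 8 and 3 with TMM rescaling. YAP1, the co-activator of TEAD4, rose from 9.15 ± 2.90 to 24.5 ± 2.93 CPM (SD, n = 2), a log2 fold change of 1.35. GATA2 had one of 1.50 and CDH1, the adhesion protein of compaction, one of 1.14. ID2, an inhibitor of helix-loop-helix factors, went from 146 and 142 to 14.5 and 13.9 CPM (-3.26, limma adjusted p-value 1.69e-06). The keratins KRT8 (-3.37) and KRT18 (-1.86), which other epithelia also make, were lower. KRT18 passed the limit of 1 CPM only through its control groups (means of 5.17 and 5.57 CPM, against 0.897 and 0.598 CPM in edited embryos). Its calls at either stage are therefore not used as support. In 8-cell embryos 3 were lower, ID2 (-1.66), KRT18 (-1.98) and KRT8 (-1.50), and none was called higher (median 0.36). Between stages 1 gene was lower in controls, ID2 (-1.33), and 1 higher in edited embryos, GATA3 (1.11), an activator of CDX2, which went from 14.7 and 13.04 to 35.7 and 27.0 CPM.

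The hypoblast list had 18 of 24 genes tested. In edited 4-cell embryos 3 were higher and 4 lower (median -0.21), and at the 8-cell stage 1 was higher and 7 lower (median -0.09). The basement membrane genes LAMA1 and COL4A1 had log2 fold changes of -2.45 and -2.43 at the 4-cell stage. Among the 8-cell calls, LAMA1 (-2.37), LAMB1 (-1.91) and PDGFRA, a receptor of mesenchyme and hypoblast (-2.49), were lower. HHEX, a homeobox gene of endoderm, was higher at both stages (0.93 and 1.11). SOS1 (2.04) and MAP2K1 (0.72), of the FGF and MAP kinase cascade, were higher at the 4-cell stage. No gene of the list was called between stages in controls, and LAMB1 (-1.34) and LAMC1 (-1.06) were lower at the 8-cell stage in edited embryos. Laminins, collagen and PDGFRA are also made by stromal cells. The summed stroma and matrix list was lower in the edited libraries of each stage, though its gene FBN1 was higher in 4-cell edited libraries (106 and 68.3 against 33.5 and 64.0 CPM). The part of stromal cells in the hypoblast list was not tested.

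KLF4 was compared with its own family. Of 23 other KLF and SP genes 13 were tested. At the 4-cell stage 4 were higher and 4 lower in edited embryos (median 0.47). KLF11 (1.23), SP6 (1.07) and KLF12 (0.95) were higher. KLF6 (-2.04), KLF13 (-1.96) and KLF10 (-1.68), of which KLF6 and KLF10 are induced by growth factors in many cell types, were lower. KLF13 passed the limit of 1 CPM only through its control groups (means of 4.17 and 1.08 CPM, against 0.276 and 0.239 CPM in edited embryos). Its call is therefore not used as support. In 8-cell embryos KLF6 (-1.96) and KLF10 (-1.71) were lower and none was called higher (median 0.03). KLF12 rose between stages in controls (1.33), and SP3 fell in edited embryos (-1.19). The genes nearest to KLF4 in pattern were CT83 (0.193), with 5.51 and 4.02 CPM in 4-cell control and 19.6 and 16.2 CPM in 4-cell edited libraries, and C20H5orf58 (0.198).

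Of 21 genes linked to embryonic genome activation 12 were in the table and 11 were tested. In 4-cell embryos 1 was higher in edited embryos, NFYB (0.62), a subunit of a CCAAT-binding factor, and 4 were lower (3 and 4 with TMM rescaling), among them HNRNPK (-1.95), SUPT4H1 (-2.30) and EIF1AX (-1.35). HNRNPK (-0.94) and EIF1AX (-0.94) were lower at the 8-cell stage too. SUPT4H1, an elongation factor subunit, was the 1 gene in the 5 lists whose editing effect differed between the stages (2.70, limma adjusted p-value 0.00681). It held 28.3 and 34.2 CPM in the 4-cell edited libraries and 121 to 201 CPM in the other 6. None of the 5 tested members was called for that difference, beside 3.96% of all tested genes.

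**Figure D5:**
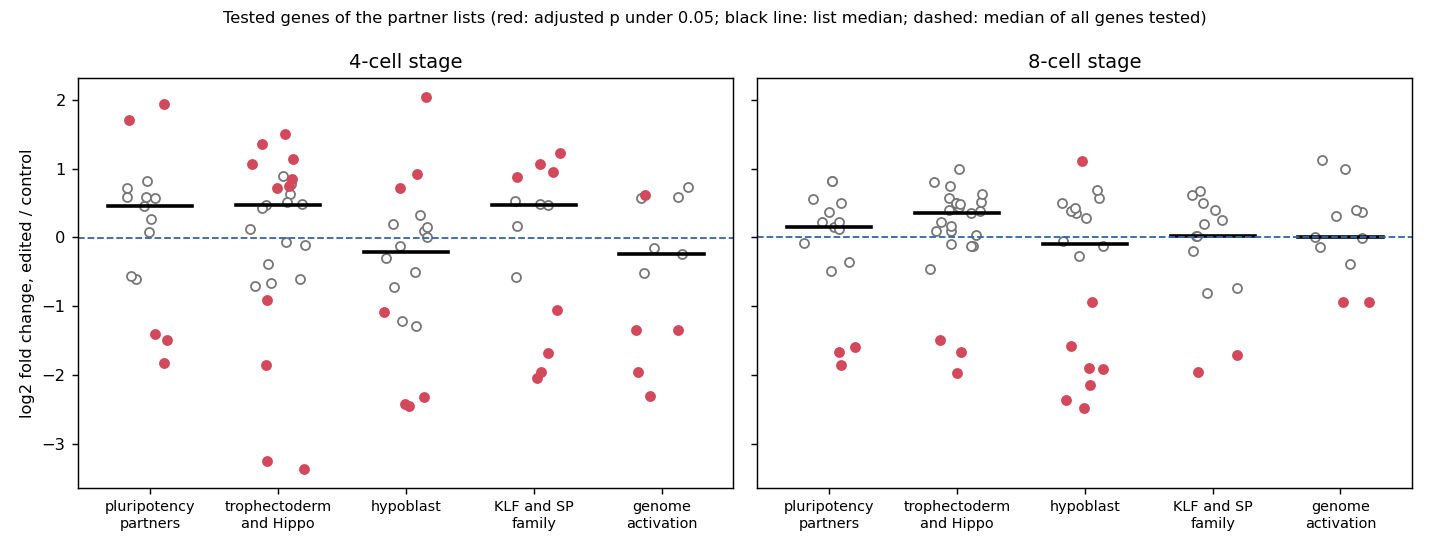
Log2 fold changes between edited and control embryos (vertical axis) of the tested genes of 5 partner lists at the 4-cell (left) and 8-cell stage (right), with a black line at each list's median and a dashed line at the median of all tested genes. At the 8-cell stage the called genes, in red, lie below 0 except HHEX at 1.11.

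The 4-cell control libraries enter both the comparison with 4-cell edited and that with 8-cell control embryos, so the 2 share samples. Side by side, KLF4 had 2.23 and 0.95, GATA6 -2.15 and -1.37, KLF17 0.39 and 1.79, KLF5 0.39 and -0.39 and POU5F1 -0.13 and 0.27 in them. Of the 9 members 3 had both 4-cell edited libraries above both controls (KLF4, KLF5, KLF17) and 2 below (GATA6, TEAD4), beside 27.6% and 34.7% of genes with a read. At the 8-cell stage 4 lay above (POU5F1, KLF4, KLF5, CDX2) and 3 below (KLF17, GATA6, TEAD4), beside 23.9% and 28.7%. KLF17 lay below by 2.00 against 2.04 CPM only, an order that TMM rescaling reversed.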

How the data were processed

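RNA was measured in 8 libraries in 4 groups. Captured mRNA was amplified (Smart-seq) and tagmented (Nextera XT), per the labels' protocols. The submitters' processing notes name Trim Galore 0.6.7, HISAT2 2.2.1 and featureCounts 2.0.1. The genome build, annotation, strand setting and any filter are not given in the sources used here. The deposited values are CPM, although the table is named for raw counts: columns sum to 992528 to 1007024. Reads were recovered by dividing by what 1 read is worth (0.0286 to 0.0300 CPM), which gave a whole number, to within 0.05, for 100% of positive values. Of 12 columns, 4 match no sample and were not used.

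Limma 3.58.1 (R 4.3.3, intensity trend) was fitted to log2(CPM + 1), with 1 mean per group, over 12129 genes averaging at least 1 CPM. Alternatives were edgeR 4.0.16 (14629 genes) and DESeq2 1.42.0 on recovered reads, no filter, pseudocounts of 0.25 and 5, TMM rescaling, only the libraries compared, a replicate block, a marker covariate and leaving out each library. Where a library was left out, the lone library of its group was assumed to vary like the other groups. For the 4-cell comparison edgeR called 5172 genes and limma 5419. The limma and count scripts were tested on simulated data. Replicates of a group differed by more than sampling noise (chi-square per degree of freedom 42.4 to 132).

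All members are described. From each partner list up to 3 called genes per direction and comparison are named by smallest p-value, and for each tested member the 2 genes nearest in pattern. The members and lists were chosen with earlier results of these data known. RefSeq (ARS-UCD2.0) was used for names and overlaps of genes only, and 10 of 10 members matched.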

Additional observations from a re-analysis of the deposited data

Results flagged for a closer look

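In deposited CPM, KLF17 lay in opposite directions at the 2 stages. Both 4-cell edited libraries lay above both 4-cell controls (14 and 10 reads against 2 and 0). Both 8-cell edited libraries lay below both 8-cell controls (67 and 60 reads against 110 and 69). The 8-cell order rests on 67 against 69 reads. TMM rescaling multiplied the CPM of these 2 libraries by 0.990 and 0.944, after which the 8-cell groups overlapped. The 8-cell effect minus the 4-cell effect was -0.68 on the log2(CPM + 1) scale (SE 0.537), and this difference did not pass (limma adjusted p-value 0.473, edgeR adjusted p-value 0.153). No group has enough libraries to look for a single outlying one.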

How the results depend on the processing

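With 2 libraries per group, single members change sides of the threshold easily. The 4-cell calls of KLF4 and GATA6 held under 16 of 17 planned settings and were lost with the marker covariate, which called 0 members and 299 genes at the 4-cell stage (2417 at an unadjusted p-value under 0.05), 0 and 212 at the 8-cell stage, 83 genes for the stage difference, 0 and 20 between stages in controls and 342 in edited embryos. At the 8-cell stage 0 members were called with edgeR, no filter, a pseudocount of 5, TMM or only the libraries compared. Leave-one-out gave 0 to 1 members and 1021 (without 8-cell control replicate 2) to 2063 genes there (1895 as reported), and 2 members and 3741 to 5388 genes at the 4-cell stage. For the stage difference (reported: 0 and 480 genes), DESeq2 called 1 member and 1065 genes, TMM 1 member, edgeR 18 genes, no filter 0 (2993 unadjusted) and leave-one-out 0 (without either 4-cell edited library) to 1396 (without 4-cell control replicate 2); of the other 5, all but 8-cell control replicate 2 lowered it to 77 or fewer. Between stages in controls (reported: 1 and 1094), edgeR called 86 genes, no filter 0 members and 1 gene (3755 unadjusted), a pseudocount of 5 called 2 members, only the libraries compared 0 members and 161 genes, and leave-one-out 0 to 1 members and 13 to 2114 genes (without 4-cell control replicates 1 and 2), 25 without 8-cell control replicate 1, and 724 and 713 without 4-cell edited replicates 1 and 2. In edited embryos (reported: 0 and 628), edgeR called 324, DESeq2 1286, no filter 17, only the libraries compared 1 member and 1149 genes, and leave-one-out 7 (without 4-cell edited replicate 2) to 966 genes (without 4-cell control replicate 1), with 945 without 4-cell control replicate 2, 351 without 4-cell edited replicate 1, and 99 and 146 without 8-cell edited replicates 1 and 2. TMM moved KLF4 in 4-cell edited libraries from 14.3 to 14.9 CPM. The causes were not tested.

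Values that were not called changed sign as follows. POU5F1 at the 4-cell stage was 0.0043 with edgeR and -0.55 to 0.29 on leave-one-out, and between stages in controls -0.0034 with the covariate. KLF17 at the 4-cell stage was -0.069 with the covariate. The stage difference of KLF5 was -0.015 with a pseudocount of 5, -0.051 with TMM, -0.022 with the covariate and -0.35 to 0.36 on leave-one-out.

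Replicate numbers come from the titles, which do not say what they stand for, and the deviations of same-numbered libraries correlated at 0.11, -0.09, -0.30 and 0.02 in the 4 comparisons of groups, so no pairing was taken from them. All replicate 2 libraries also share the library letter D and both edited replicate 1 libraries the letter C, and the labels do not say what these letters mean. The replicate block left the members' calls as they were (2, 1, 0, 1 and 0 in the 5 comparisons). With crossed numbers, an alternative chosen after seeing the data, 1690 genes and 1 member were called between stages in controls. TFAP2C, TEAD4 and the 4-cell values of KLF17 rest on at most 37 reads per library. NANOG differed within groups (27 and 0 reads in the 8-cell control, 20 and 0 in the 4-cell edited libraries).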
